A study of Mus musculus with 48 samples.

Results

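Myelin and oligodendrocyte transcripts were followed in frontal cortex and hypothalamus of sleep-deprived mice that carried human PER3 repeat variants or the mouse gene. The 9 genes were Mbp, Mobp, Mog, Mag, Cnp, Mal, Sox10, Olig1 and Olig2, out of 18883 genes that the array named through RefSeq, and every probe whose RefSeq transcript belonged to 1 of them was taken. That gave 16 probes, with 3 genes read by 1 probe, 5 genes by 2 and Mbp by 3, and all 16 passed the filter on dim probes in both tissues.

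The mice were young adults on a C57BL/6 background, 8 of each genotype. In the knock-in (KI) lines, exon 18 of mouse Per3 had been replaced by the human exon carrying 4 repeats (Per3 4/4) or 5 repeats (Per3 5/5). Cre recombination of a conditional line, with the Cre bred out afterwards, produced both lines, and wild-type (WT) mice came from the same conditional crosses. All 24 mice were kept awake for 12 h in the light phase, so no value here separates genotype at rest from genotype after sleep loss, and mice left to sleep were not analysed here. Both tissues of each mouse went onto Agilent single-colour arrays, 48 in all. Where nothing else is said, a level is the log2 processed signal of a probe minus the log2 75th percentile of its array, a difference of 1 is a 2-fold change, and a gene is represented by its brightest tested probe.

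Oligodendrocytes wrap axons of the central nervous system in myelin, a compacted stack of membrane that insulates the axon and speeds conduction. Precursor cells commit to the lineage under Olig2 and Olig1, and Sox10 then switches on the genes of the sheath, among them those for the proteins that glue the membrane layers together (Mbp, Mobp), face the axon or the outside (Mag, Mog), keep cytoplasmic channels open (Cnp) or sort membrane to the sheath (Mal). The hypothalamus is crossed by several myelinated tracts, and the frontal cortex holds myelinated fibres in its deep layers and the white matter beneath them.

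Tissue identity followed the labels. All 7 markers of frontal cortex were lower in hypothalamus, with a median difference of -4.62 on the log2 scale, and all 9 hypothalamic markers were higher, with a median of 6.94. Unscaled array brightness differed between genotypes: the 75th percentile of the hypothalamic arrays had a median of 1522 in WT, 924 in Per3 4/4 and 1045 in Per3 5/5, and that of the cortical arrays 1300, 753 and 894. Scan day was not balanced either. Day 1 held 4 Per3 5/5 and 4 Per3 4/4 mice and no WT, day 2 held 3 Per3 4/4 and 5 WT, and day 3 held 4 Per3 5/5, 1 Per3 4/4 and 3 WT.

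The upstream sequences of the genes that moved are shown because Sox10 is known to act on myelin genes through a short core motif. RefSeq promoter windows (GRCm38.p6) were on hand for 6 of the 9 genes, and the 250 bases before the start site were searched on both strands for ACAAAG, for its close relative ACAATG, which Sox factors also bind, and for the E-box CAGCTG, the kind of site that helix-loop-helix factors such as Olig2 use. Capitals mark ACAAAG or, on the opposite strand, CTTTGT, and each sequence reads 5′ to 3′ towards the gene. They come from chr9:120149492-120149741 on the plus strand (Mobp), chr11:100574689-100574938 on the plus strand (Cnp), chr7:30914864-30915113 on the minus strand (1 of 3 Mag windows) and chr17:37023399-37023648 on the minus strand (Mog).
Mobp: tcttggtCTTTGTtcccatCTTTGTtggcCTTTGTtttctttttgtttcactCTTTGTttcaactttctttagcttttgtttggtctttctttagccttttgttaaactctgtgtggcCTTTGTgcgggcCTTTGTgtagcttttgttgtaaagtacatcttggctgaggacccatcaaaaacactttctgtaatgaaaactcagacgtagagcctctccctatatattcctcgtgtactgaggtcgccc
Cnp: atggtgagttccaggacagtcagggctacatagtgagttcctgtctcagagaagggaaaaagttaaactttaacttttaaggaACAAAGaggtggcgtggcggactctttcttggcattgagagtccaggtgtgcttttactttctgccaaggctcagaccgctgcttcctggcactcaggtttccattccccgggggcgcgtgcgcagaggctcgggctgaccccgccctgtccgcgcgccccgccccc
Mag: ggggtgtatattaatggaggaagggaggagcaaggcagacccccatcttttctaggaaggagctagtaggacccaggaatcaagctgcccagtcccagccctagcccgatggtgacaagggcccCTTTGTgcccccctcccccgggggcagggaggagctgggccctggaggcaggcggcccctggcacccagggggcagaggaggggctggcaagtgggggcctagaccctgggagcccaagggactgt
Mog: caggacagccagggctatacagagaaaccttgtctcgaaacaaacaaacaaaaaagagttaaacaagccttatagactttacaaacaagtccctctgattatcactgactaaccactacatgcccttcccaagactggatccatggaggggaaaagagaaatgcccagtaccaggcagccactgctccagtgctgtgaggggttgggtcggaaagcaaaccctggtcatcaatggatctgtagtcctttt

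Mobp held 6 copies of CTTTGT, at 243, 231, 221, 198, 132 and 120 bases before its start site. Of all 32851 windows of this length, 16.5% held ACAAAG in either orientation, 1.74% held at least 2 copies and only 2 windows held 5 or more, those of Mobp and of Tnfsf10. Cnp carried 1 copy at 167 bases before the start. In the Mag window shown, 1 copy lay at 126 bases, an overlapping Mag window placed that copy at 67 bases before its own start site, and the third Mag window held none. Neither Mog nor Mal had any of the 3 motifs in the window, and Olig2 had 1 copy of ACAATG (found in 3512 of the 32851 windows) at 68 bases. CAGCTG, present in 13% of windows, was in none of the 8 windows of these genes. These matches describe letters only, and binding was not measured.

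In hypothalamus, the sheath genes Mobp, Cnp and Mag and the transcription factor Sox10 were higher in both KI lines than in WT. Mbp and Mog passed the test in Per3 4/4 but not in Per3 5/5, and Mal, Olig1 and Olig2 passed in neither. Per3 4/4 passed the test for 6 of 9 genes (Mobp, Cnp, Mag, Mbp, Mog and Sox10), all upward, where 15.1% of all probes were called in either direction and 8.24% upward. Per3 5/5 passed it for 4 of 9 (Mobp, Cnp, Mag and Sox10), again all upward, against 18.8% of probes in either direction and 10.3% upward. The median difference over the 9 genes was 0.45 in Per3 4/4 and 0.35 in Per3 5/5, and over all probes it was 0.02 and 0.03. Both comparisons used the same 8 WT mice. In homogenised tissue, a difference in the number of oligodendrocytes and a difference in RNA per oligodendrocyte cannot be told apart.

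**Figure D1:**
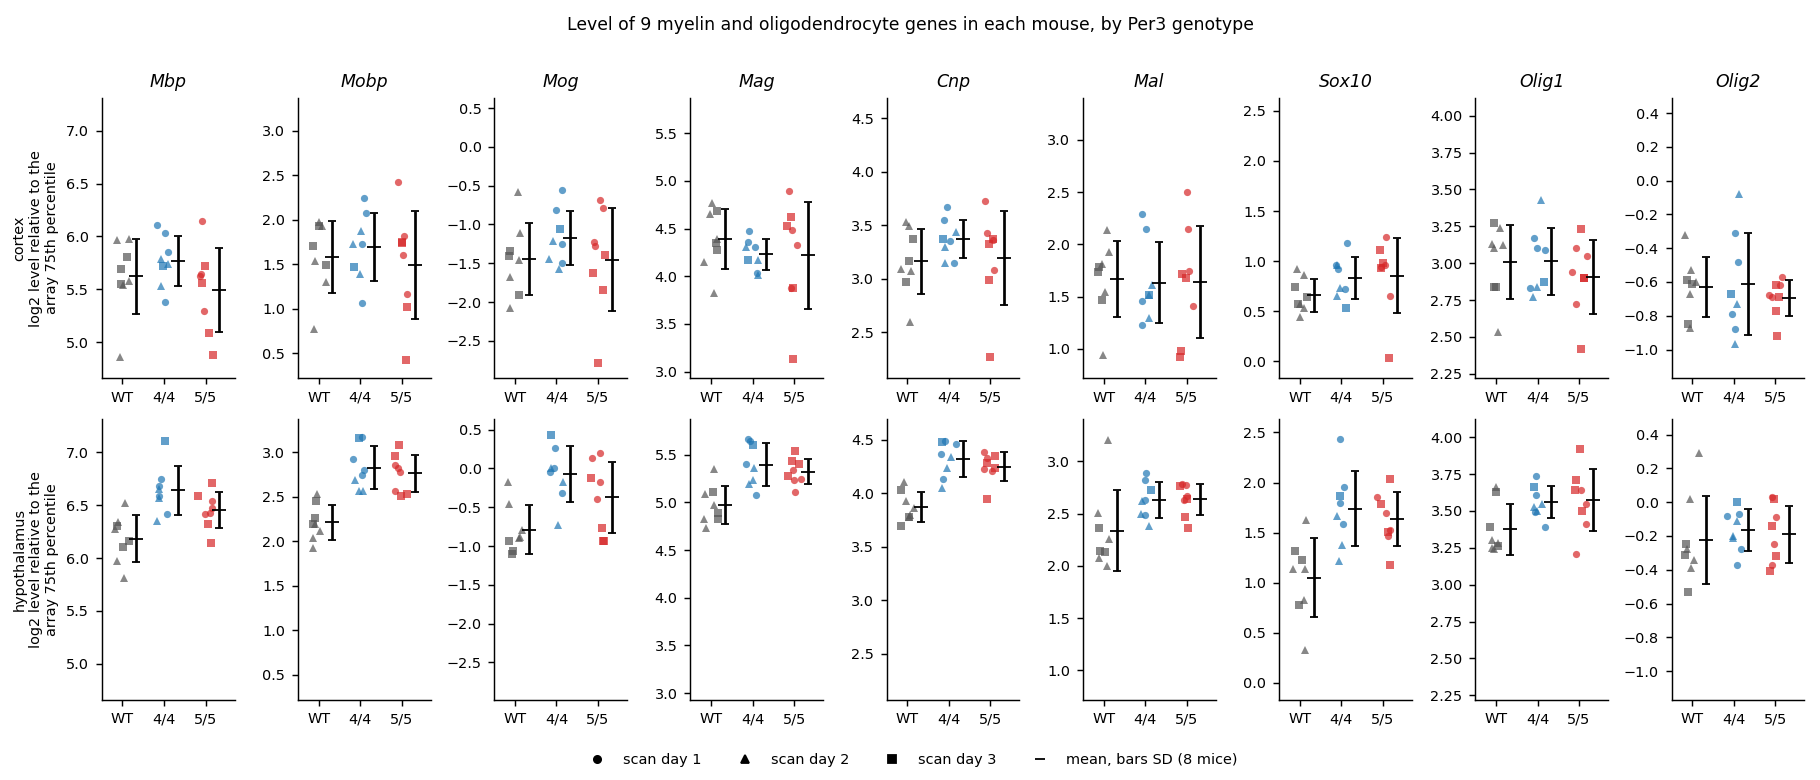
Level of each of the 9 genes (log2 signal minus log2 75th percentile of the array) in every mouse, by genotype and tissue, with group mean and SD (n = 8) and marker shape for scan day. Hypothalamic Mobp was higher in every Per3 4/4 mouse (2.57 or above) than in any WT mouse (2.53 or below), while cortical groups overlapped for all 9 genes.

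By brightest probe, Mobp separated the KI lines from WT most completely among the genes of compact myelin. Its hypothalamic level ran from 1.93 to 2.53 in WT (median 2.19), from 2.57 to 3.17 in Per3 4/4 (median 2.78) and from 2.51 to 3.08 in Per3 5/5 (median 2.81). All 8 Per3 4/4 mice and 7 of 8 Per3 5/5 mice lay above every WT mouse. The difference from WT was 0.61 ± 0.11 (SE) in Per3 4/4, a 1.53-fold rise (limma, adjusted p = 0.00423), and 0.55 ± 0.11 in Per3 5/5, a 1.47-fold rise (adjusted p = 0.0029). Its other probe, A_52_P267600, gave 0.47 ± 0.13 in each line.

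Mbp encodes the basic protein that holds the cytoplasmic faces of the membrane together. By the main probe, its hypothalamic level ran from 5.81 to 6.52 in WT (median 6.22), from 6.35 to 7.11 in Per3 4/4 (median 6.62) and from 6.14 to 6.71 in Per3 5/5 (median 6.45). Of the Per3 4/4 mice 6 lay above all WT mice, and of the Per3 5/5 mice 3 did. Mbp was 1.37-fold higher in Per3 4/4 (0.46 ± 0.11, adjusted p = 0.0121), and the Per3 5/5 difference of 0.27 ± 0.11 missed the threshold (adjusted p = 0.0785). Before scaling, the median intensity of this probe was 114000 in WT, 96850 in Per3 4/4 and 89950 in Per3 5/5, so the rise is relative to the rest of each array. Unscaled Mobp medians were 6880, 7290 and 7155. The 75th percentile of the hypothalamic arrays had a median intensity of 1522 in WT, 924 in Per3 4/4 and 1045 in Per3 5/5, and the part of array brightness in the genotype differences was not tested.

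Cnp, an enzyme of the non-compacted parts of the sheath, had the smallest standard error of the 9 genes in hypothalamus. Its level ran from 3.69 to 4.11 in WT hypothalamus (median 3.83), from 4.05 to 4.49 in Per3 4/4 (median 4.36) and from 3.95 to 4.39 in Per3 5/5 (median 4.26). In each KI line 7 of 8 mice were above all WT mice. The rise was 1.36-fold in Per3 4/4 (0.45 ± 0.08, adjusted p = 0.00438) and 1.30-fold in Per3 5/5 (0.37 ± 0.08, adjusted p = 0.00443).

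Mag is an adhesion molecule of the innermost, axon-facing membrane. Its level was 4.73 to 5.35 in WT hypothalamus (median 4.93), 5.08 to 5.67 in Per3 4/4 (median 5.38) and 5.11 to 5.54 in Per3 5/5 (median 5.31). Groups overlapped, with 5 Per3 4/4 and 3 Per3 5/5 mice above all WT mice. Mag rose 1.34-fold in Per3 4/4 (0.42 ± 0.10, adjusted p = 0.0117) and 1.27-fold in Per3 5/5 (0.35 ± 0.10, adjusted p = 0.0185). Its dimmer probe, A_52_P375021, gave larger differences, 0.91 ± 0.15 and 0.70 ± 0.15.

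Mog, a protein of the outermost sheath surface, was read by 1 probe. WT hypothalamus ran from -1.10 to -0.17 (median -0.89), Per3 4/4 from -0.73 to 0.43 (median -0.02) and Per3 5/5 from -0.94 to 0.20 (median -0.28). Only Per3 4/4 passed the test, at 1.64-fold (0.72 ± 0.18, adjusted p = 0.0168), and in Per3 5/5 the difference was 0.41 ± 0.18 (adjusted p = 0.111). The difference between the KI lines was itself not called, at -0.30 for Per3 5/5 minus Per3 4/4 (95% interval -0.68 to 0.08).

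Mal, a proteolipid of the membrane-sorting machinery, passed in neither line. Its WT level ran from 2.0 to 3.20 (median 2.20), against 2.38 to 2.89 in Per3 4/4 (median 2.62) and 2.36 to 2.78 in Per3 5/5 (median 2.66). The highest WT value belonged to replicate 3, which stood above all KI mice. Differences from WT were 0.30 in both lines (adjusted p = 0.112 and 0.0994). Without that mouse, a choice made after seeing the data, they were 0.42 in both (adjusted p = 0.00955 and 0.00443), and 7 and 6 of the 9 genes were called (Per3 4/4 first), with Mbp also passing in Per3 5/5. With all mice the other Mal probe, A_52_P562661, gave 0.06 and 0.16 (limma, adjusted p = 0.706 and 0.3). Without WT replicate 3 that probe gave 0.15 and 0.24 and still passed in neither line (limma, adjusted p = 0.228 and 0.051).

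Among the transcription factors, Sox10 differed and the Olig genes did not pass. Sox10, which activates myelin genes as the cells mature, ran from 0.33 to 1.63 in WT hypothalamus (median 1.14), from 1.22 to 2.43 in Per3 4/4 (median 1.74) and from 1.18 to 2.04 in Per3 5/5 (median 1.61). Its differences were 0.69 ± 0.17, or 1.61-fold, in Per3 4/4 (adjusted p = 0.0141) and 0.58 ± 0.17, or 1.5-fold, in Per3 5/5 (adjusted p = 0.0214), with 5 and 4 mice above all WT mice. A second, dim Sox10 probe, A_52_P192625, gave 1.26 ± 0.32 and 0.96 ± 0.32.

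Olig1 and Olig2 are basic helix-loop-helix factors present from the precursor stage on. Olig1 ran from 3.24 to 3.66 in WT hypothalamus (median 3.29), from 3.39 to 3.74 in Per3 4/4 (median 3.54) and from 3.21 to 3.92 in Per3 5/5 (median 3.59), and the differences of 0.18 and 0.20 did not pass (adjusted p = 0.16 and 0.119). Olig2 ran from -0.53 to 0.29, from -0.37 to 0.00 and from -0.41 to 0.03 in the same order. The Olig2 differences were 0.06 (95% interval -0.15 to 0.27) and 0.03 (-0.17 to 0.24). A far dimmer Olig2 probe, A_51_P367451, with intensities of 9.46 to 63.7 across the 24 hypothalamic arrays, gave 0.76 ± 0.25 in Per3 4/4 (adjusted p = 0.0416) and 0.20 ± 0.25 in Per3 5/5.

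**Figure D2:**
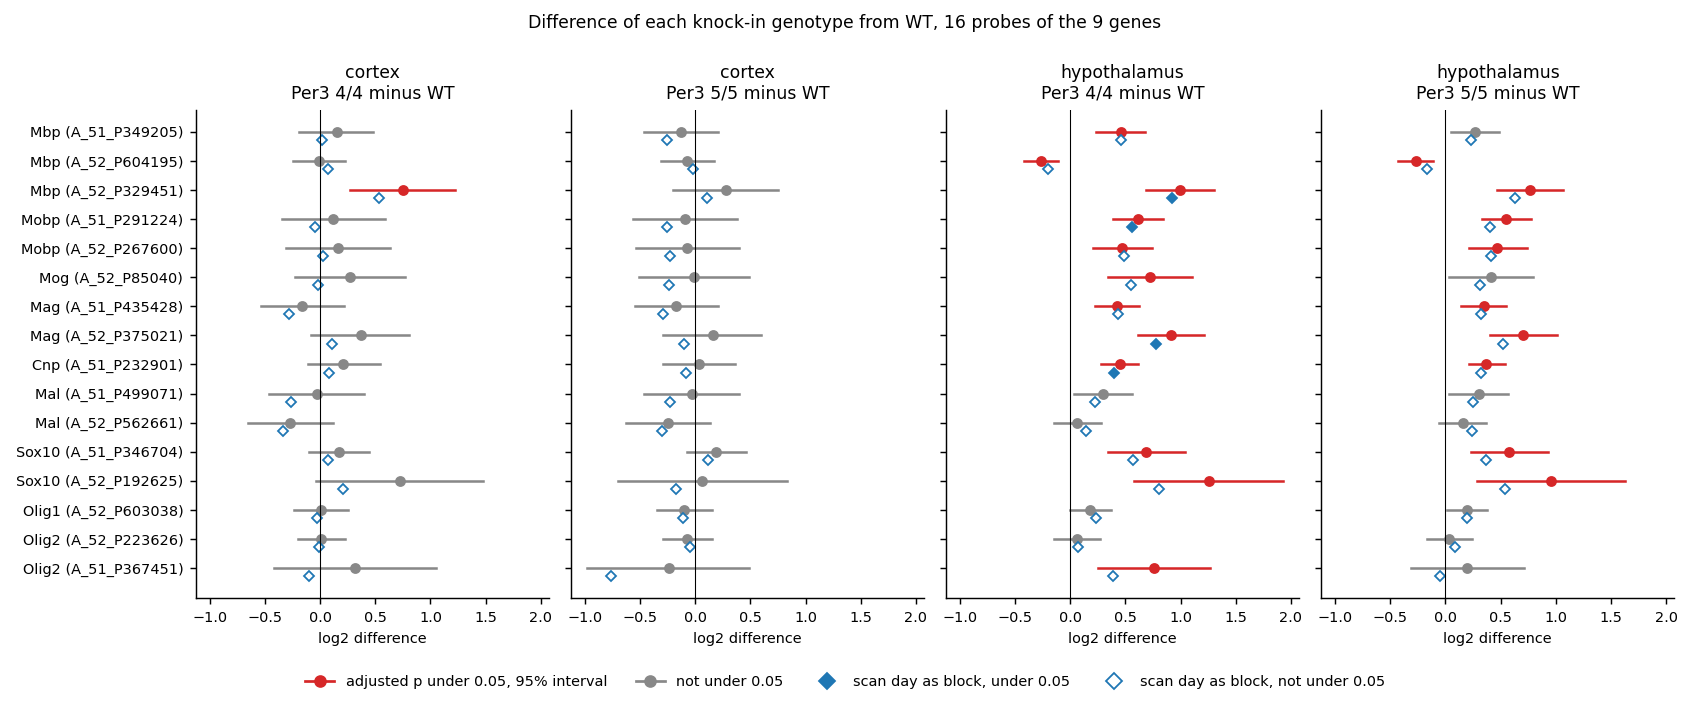
Difference from WT (log2) for each of the 16 probes in the 4 comparisons of a KI line with WT, with 95% intervals, and diamonds for the fit with scan day as a block. In hypothalamus all probes except Mbp A_52_P604195 lay above 0 without the block, and in cortex all 9 intervals of the genes' main probes included 0.

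Scan day bore on these calls. With scan day as a block, Mobp (0.56, adjusted p = 0.0333) and Cnp (0.40, adjusted p = 0.0426) were still called in Per3 4/4, where 0.745% of probes were called. The other Per3 4/4 differences that had passed became 0.46 for Mbp (adjusted p = 0.07), 0.43 for Mag (0.0606), 0.57 for Sox10 (0.112) and 0.55 for Mog (0.135). In Per3 5/5 the block left 0 of 9 genes past limma's adjusted threshold and 3 under an unadjusted p of 0.05, where 2.1% of probes were called, with Mobp and Cnp at 0.40 and 0.32 (adjusted p = 0.0739 for each). Within day 2 alone (3 Per3 4/4 and 5 WT mice) 8 of 9 differences were above 0, Mobp at 0.44 and Cnp at 0.31, and within day 3 alone (4 Per3 5/5 and 3 WT mice) all 9 were, Mobp at 0.47 and Cnp at 0.37. No gene passed within a single day.

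The 3 Mbp probes did not move together. A_52_P329451 was higher in KI hypothalamus by 0.99 ± 0.15 in Per3 4/4 (adjusted p = 0.00165) and 0.77 ± 0.15 in Per3 5/5 (adjusted p = 0.00246), with 8 and 7 mice above all WT mice. A_52_P604195, which the array annotates to a different RefSeq transcript of Mbp from the other probes, was lower. Its level ran from 3.15 to 3.62 in WT hypothalamus (median 3.37), from 2.99 to 3.28 in Per3 4/4 (median 3.09) and from 2.90 to 3.32 in Per3 5/5 (median 3.11). The difference was -0.27 ± 0.08 in both lines (adjusted p = 0.0246 and 0.0176), and 6 Per3 4/4 and 5 Per3 5/5 mice were below all WT mice. With scan day as a block it was -0.20 and -0.17 and no longer passed (adjusted p = 0.171 and 0.248).

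Across mice, A_52_P329451 and A_52_P604195 also ran against each other. After the genotype mean was subtracted, A_52_P329451 and A_52_P604195 had r = -0.64 and rho = -0.56 in cortex and r = -0.58 and rho = -0.63 in hypothalamus (24 mice each, permutation within genotype, adjusted over 16 probe pairs, p for r = 0.00533 and 0.00408, for rho = 0.0179 and 0.004). Without the 2 mice farthest from the median, r was -0.45 and -0.40. The main Mbp probe and A_52_P329451 had r = 0.93 in cortex and 0.58 in hypothalamus. The main probe and A_52_P604195 had r = -0.55 and rho = -0.44 in cortex (permutation, adjusted p = 0.017 and 0.0629). In hypothalamus that pair had r = -0.13 and rho = -0.14 (permutation, adjusted p = 0.561 and 0.542). For the other genes with a second probe, r between probes was 0.93 and 0.79 for Mal, 0.92 and 0.48 for Mobp, 0.89 and 0.55 for Mag, 0.71 and 0.40 for Sox10 and 0.23 and 0.19 for Olig2, cortex first.

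**Figure D3:**
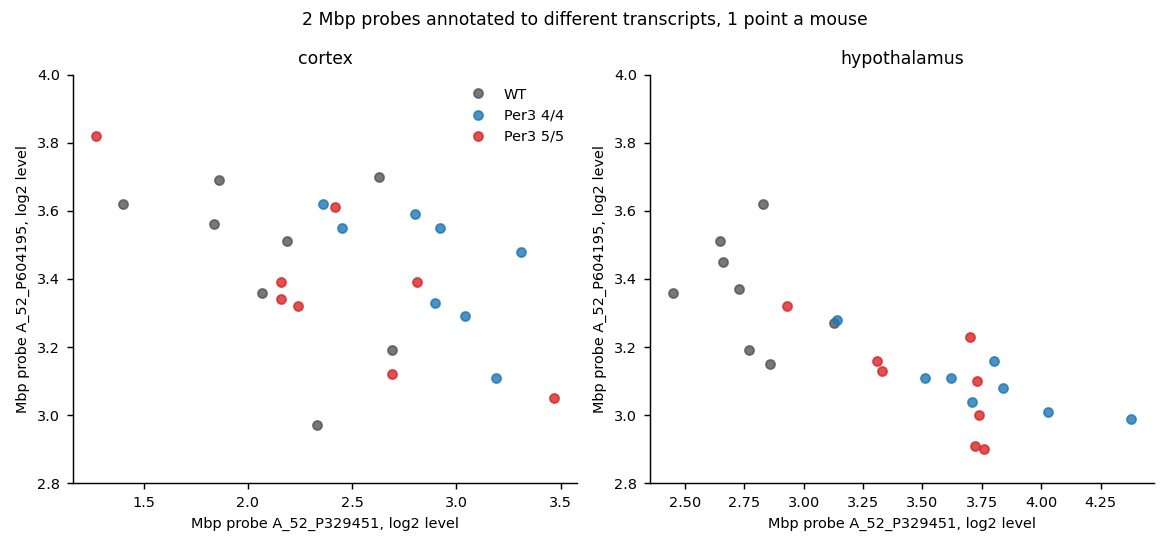
Level (log2) of Mbp probe A_52_P604195 against Mbp probe A_52_P329451 in each mouse, by tissue and genotype. Mice with more signal on A_52_P329451 had less on A_52_P604195, with r of -0.64 in cortex and -0.58 in hypothalamus after genotype means were subtracted.

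In frontal cortex no genotype difference was detected in these genes. By limma 0 of 9 genes were called in Per3 4/4 and 0 of 9 in Per3 5/5, and 0 reached an unadjusted p under 0.05 in either, while 22.5% and 12.4% of all probes were called (13.4% and 8.44% upward). Mobp spanned 0.77 to 1.98 in WT (median 1.62), 1.07 to 2.24 in Per3 4/4 (median 1.73) and 0.42 to 2.42 in Per3 5/5 (median 1.68). Mbp spanned 4.86 to 5.98, 5.38 to 6.11 and 4.88 to 6.15 in that order. The groups overlapped for all 9 genes. For Sox10, 6 of 8 Per3 5/5 mice lay above every WT mouse and 1 below, and the difference of 0.19 ± 0.13 did not pass (adjusted p = 0.311). Intervals were wide: for Mobp the difference was 0.12 (95% interval -0.35 to 0.59) in Per3 4/4 and -0.09 (-0.56 to 0.38) in Per3 5/5, and for Cnp 0.21 (-0.11 to 0.54) and 0.03 (-0.29 to 0.36). The probe A_52_P329451 of Mbp was the exception among the 16, higher in Per3 4/4 by 0.75 ± 0.23 (adjusted p = 0.0238), or 0.53 with scan day as a block (adjusted p = 0.178). Per3 5/5 replicate 8 held the lowest cortical value of several members, and without it cortical Sox10 passed in Per3 5/5 at 0.31 (limma, adjusted p = 0.0305). Without WT replicate 5 instead, Sox10 did not pass there (0.16, adjusted p = 0.443). Mbp probe A_52_P329451 in Per3 4/4 then no longer passed either (0.64, adjusted p = 0.0513). Both choices were made after seeing the data.

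Neither tissue separated the KI lines. For Per3 5/5 minus Per3 4/4, limma called 0 of 9 genes in cortex and in hypothalamus, none had an unadjusted p under 0.05, and 0% of all probes were called. Hypothalamic differences ran from -0.30 (Mog) to 0.02 (Olig1), with Mobp at -0.06 (95% interval -0.29 to 0.16) and Cnp at -0.07 (-0.24 to 0.10).

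All 9 genes were higher in hypothalamus than in cortex, where 67.8% of all probes differed and 35.4% were higher. The difference over the 3 genotypes was 1.01 ± 0.10 for Mobp, 0.95 ± 0.09 for Mag, 0.90 ± 0.07 for Cnp, 0.89 ± 0.10 for Mal, 0.79 ± 0.08 for Mbp and 0.95 for Mog. For the transcription factors it was 0.69 ± 0.09 for Sox10, 0.53 ± 0.06 for Olig1 and 0.45 ± 0.06 for Olig2. Each gene was higher in hypothalamus in 23 or 24 of the 24 mice. Mbp probe A_52_P604195 went the other way, at -0.24 ± 0.06 (limma, adjusted p = 0.000225), and was higher in hypothalamus in 7 of 24 mice. These standard errors and this p come from a fit that did not pair the tissues of a mouse. With the mouse as a block, the largest adjusted p of the 9 genes by limma was 8.89e-07 (Sox10), and that of A_52_P604195 was 0.000234.

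Within each genotype the gap between tissues was of different size. For Mobp the mean gap was 0.63 ± 0.41 (SD, n = 8) in WT, 1.13 ± 0.47 in Per3 4/4 and 1.27 ± 0.67 in Per3 5/5. For Cnp it was 0.71 ± 0.24, 0.95 ± 0.29 and 1.05 ± 0.48, and for Mbp 0.56 ± 0.27, 0.87 ± 0.38 and 0.96 ± 0.44. The gap was wider in both KI lines than in WT for all 9 genes, but no genotype by tissue interaction was called: by limma 0 of 9 passed in either line (every adjusted p = 1), 2 of 9 had an unadjusted p under 0.05 in each, and 0.0032% and 0.016% of all probes were called, Per3 4/4 first. So the genotype difference in hypothalamus was not shown to be larger than that in cortex. With the mouse as a block, the lowest adjusted p over the 9 genes was 0.791.

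The genes varied together from mouse to mouse, with a higher median correlation in cortex than in hypothalamus, a difference that was not itself tested. After the genotype mean was subtracted, the 36 pairs had a median r of 0.76 in cortex (0.25 to 0.96) and 0.44 in hypothalamus (-0.25 to 0.82), while the median r of a member with all other probes was 0.00 and -0.01. In cortex Mbp and Mobp had r = 0.96 and rho = 0.96, and Mbp and Cnp r = 0.94 and rho = 0.96 (24 mice, permutation, adjusted p for r = 5.1e-05, from the smallest p that 100000 permutations can give). By r, 35 of 36 cortical and 18 of 36 hypothalamic pairs had an adjusted p under 0.05 over the 72 pairs, and by rho 34 and 22. Without the 2 mice farthest from the median the medians fell to 0.60 and 0.40. Within the 3 scan days the cortical median was 0.73, 0.82 and 0.78, and the hypothalamic one 0.37, 0.52 and 0.70 (8 mice each). All values share the scaling step of their array.

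**Figure D4:**
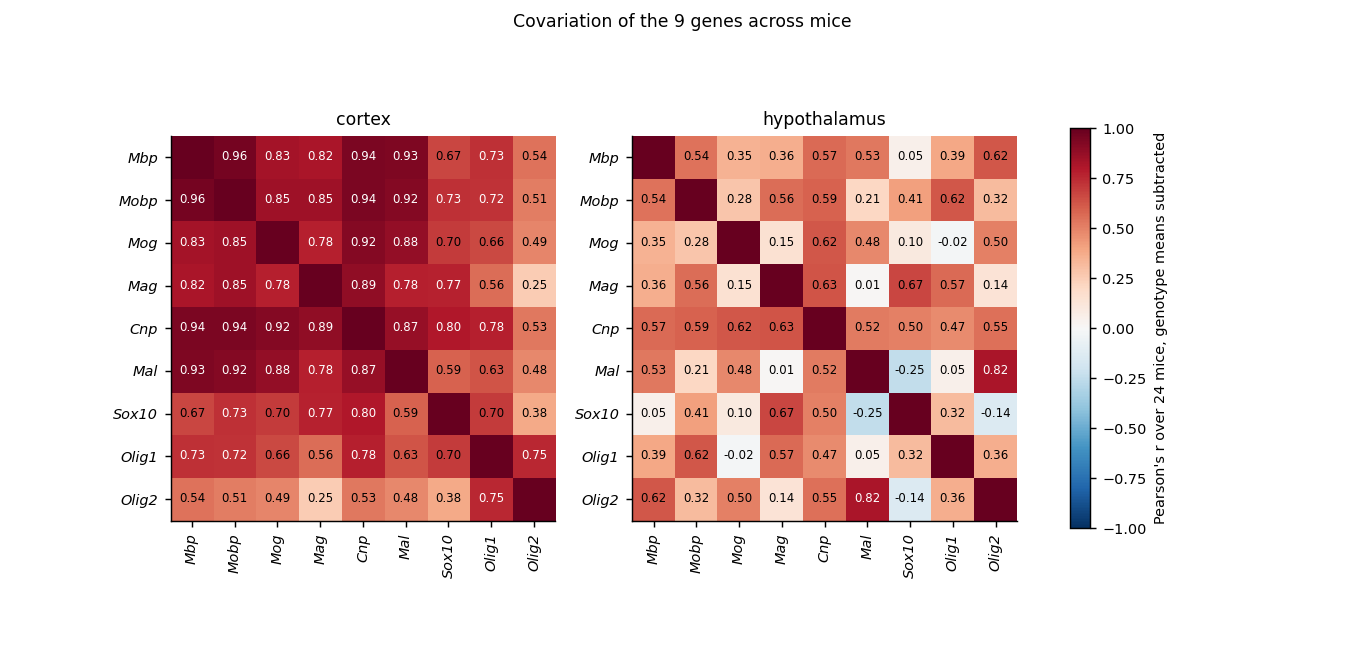
Pearson's r between each pair of the 9 genes over 24 mice after subtracting genotype means, in cortex and hypothalamus (colour scale from -1 to 1). Sheath genes in cortex form a block of high r (Mbp and Mobp 0.96), Olig2 stands lower there, and hypothalamic values scatter from -0.25 to 0.82.

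By role, the lowest cortical values involved Olig2, which had r from 0.25 with Mag (rho = 0.27, adjusted p for r = 0.12) to 0.75 with Olig1. In hypothalamus the pairs with the highest r were Mal with Olig2 (r = 0.82, rho = 0.73, adjusted p for r = 0.000127, permutation) and Mag with Sox10 (r = 0.67, rho = 0.73, adjusted p for r = 0.003, permutation). Mal with Sox10 had r = -0.25 and rho = 0.06, and r turned to 0.18 without the 2 mice farthest from the median.

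Cortex and hypothalamus of the same mouse gave no relation that passed. The correlation of each gene between the tissues of a mouse had a median of 0.02 over the 9 genes, from -0.33 for Sox10 to 0.44 for Mal (rho = -0.28 and 0.46). Over the 9 relations (24 mice each, permutation) the lowest adjusted p was 0.132 for r.

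By mean r with the 9 genes over the 24 mice, the nearest other genes in cortex were Slc44a1 (a choline transporter, 0.83), Cd82, Tmem63a and Arsg (0.82 each) and Pdlim2 (0.81), out of 15389 genes. In hypothalamus they were Gjc3 (a connexin of oligodendrocytes) and Slc34a3 at 0.57, Tmem63a at 0.56, Arsg at 0.55 and Adgre5 at 0.52, out of 15915. Tmem63a and Arsg were in the first 5 of both tissues. In hypothalamus Gjc3 differed from WT by 0.65 in Per3 4/4 and 0.51 in Per3 5/5 (limma, adjusted p = 0.0024 and 0.00275). Arsg differed by 0.44 and 0.45 (adjusted p = 0.00914 and 0.00382) and Tmem63a by 0.46 and 0.38 (adjusted p = 0.0212 and 0.041). Slc34a3 (0.22 and 0.21, adjusted p = 0.473 and 0.472) and Adgre5 (0.14 and 0.11, adjusted p = 0.142 and 0.236) were not called. Of all probes 15.1% and 18.8% were. None of the 5 nearest cortical genes was called in cortex, the lowest adjusted p by limma being 0.149 for Cd82 in Per3 4/4.

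The wider oligodendrocyte programme was read from 85 further genes, 78 of them on the array. In hypothalamus 23 were higher and 1 lower in Per3 4/4 (median over the list 0.22), and 17 higher and 1 lower in Per3 5/5 (median 0.16), against the 15.1% and 18.8% of all probes called. Cortex had 5 higher and 3 lower of 77 in Per3 4/4 and 1 of each in Per3 5/5, where 22.5% and 12.4% of probes were called. The scan day block left 5 hypothalamic calls in Per3 4/4 (Bcas1, Gjc3, Plekhb1, Qdpr and Septin4) and 2 in Per3 5/5 (Bcas1 and Septin4). Under the same block 0.745% and 2.1% of all probes were called, so the Per3 5/5 count was near the share over all probes.

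**Figure D5:**
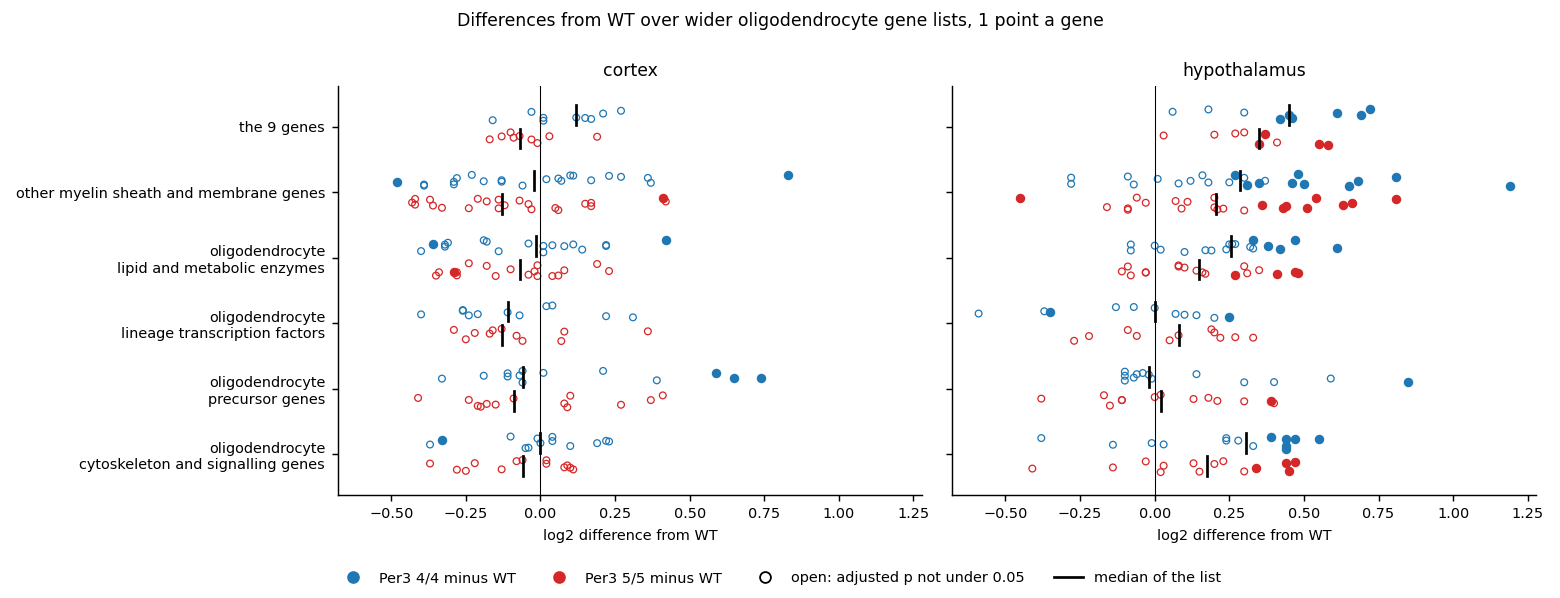
Difference from WT (log2) in hypothalamus and cortex for each measured gene of the wider oligodendrocyte lists and the 9 genes, 1 point per gene. The median over the 9 genes was 0.45 in Per3 4/4 and 0.35 in Per3 5/5 hypothalamus, and over the wider lists 0.22 and 0.16.

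Genes of the sheath and its membrane channels formed the longest of these lists. Of 22 such genes, 10 were higher in Per3 4/4 hypothalamus and 8 higher and 1 lower in Per3 5/5. Of all probes 8.24% and 10.3% were higher there, and 15.1% and 18.8% were called in either direction (Per3 4/4 first). Gjb1, a connexin that links layers of the sheath, was higher in both lines. It rose by 0.81 in Per3 4/4 and 0.54 in Per3 5/5 (limma, adjusted p = 0.00727 and 0.0283). Bcas1, a marker of newly myelinating cells, rose by 0.68 and 0.66 and still passed with scan day as a block (0.70, adjusted p = 0.0272, and 0.61, adjusted p = 0.0368). Nfasc, an adhesion molecule of the node and paranode, rose by 0.63 in Per3 5/5 (adjusted p = 0.00346). The single gene that was lower was Cd9, a tetraspanin, at -0.45 in Per3 5/5 (adjusted p = 0.0192), picked for naming after its value was seen.

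Lipid and metabolic enzymes gave 5 and 4 higher of 18 in the KI lines, where 8.24% and 10.3% of all probes were higher and 15.1% and 18.8% were called in either direction, and with scan day as a block Qdpr in Per3 4/4 was the single one left. Trf, the iron carrier transferrin, rose by 0.61 and 0.47, and Elovl1, which elongates very long fatty acids, by 0.47 and 0.41. Gal3st1, which makes sulfatide, rose by 0.38 and 0.48, and Gstp1 by 0.42 in Per3 4/4. Cytoskeletal and signalling genes gave 6 and 4 higher of 14. Among them were Plekhb1 at 0.55 and 0.47, Plxnb3 at 0.47 and 0.44, Cdc42ep2 at 0.44 and 0.45, and Anln at 0.44 in Per3 4/4. Of 13 precursor genes 1 was called in each line (C1ql1 at 0.85 in Per3 4/4, Cspg4 at 0.39 in Per3 5/5). Of 11 transcription factors Carhsp1 rose by 0.25 and Id4, an inhibitor of differentiation, fell by 0.35 in Per3 4/4, with 0 called in Per3 5/5 by limma. Lists this short cannot show a departure from the 15.1% and 18.8% of all probes called.

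In cortex the called genes of these lists were few and of mixed direction. Of 77 genes, 5 were higher and 3 lower in Per3 4/4, and 1 of each in Per3 5/5, where 22.5% and 12.4% of all probes were called. Among them, Per3 4/4 was higher for the precursor genes C1ql1 (0.65), Matn4 (0.59) and Neu4 (0.74) and for Gstp1 (0.42). It was lower for Tspan2 (-0.48), Elovl7 (-0.36) and Dock9 (-0.33). The 3 precursor probes were dim, at mean levels of -2.77, -3.28 and -4.34. With scan day as a block C1ql1 and Neu4 no longer passed (limma, adjusted p = 0.225 and 0.121), while Matn4 did (0.0442). Per3 5/5 was higher for Nfasc (0.41) and lower for Elovl7 (-0.29). Between tissues, 59 of the 78 wider genes were higher in hypothalamus and 7 lower, where 67.8% of all probes differed and 35.4% were higher.

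Some markers of other cell types and brain regions were also called in hypothalamus, where 15.1% and 18.8% of all probes were (Per3 4/4 first). Of 8 astrocyte markers, 2 were higher in Per3 4/4 (Aldoc at 0.46 and Aldh1l1 at 0.27), and in Per3 5/5 3 were higher (Aldoc at 0.44, Aqp4 at 0.41 and Aldh1l1 at 0.40) and 1 lower (Gja1 at -0.35). Other astrocyte markers lay below 0 in Per3 4/4 without passing, Slc1a2 at -0.30, Slc1a3 at -0.27 and Gja1 at -0.26 (adjusted p = 0.129, 0.0707 and 0.0865). Of 8 neuronal markers, 1 and 3 were higher, and of 7 microglial markers none was higher and 2 were lower in Per3 5/5. Of 5 endothelial markers, Kdr was lower in both lines (-0.50 and -0.47) and Cldn5 higher in Per3 5/5 (0.45). Of 5 striatal markers, 2 were higher in both lines, Ppp1r1b by 0.95 and 0.80 (adjusted p = 0.00727 and 0.00797) and Drd2 by 0.46 and 0.43 (adjusted p = 0.0163 and 0.015). Of 7 frontal cortex markers, Tbr1 (1.12) and Cux2 (0.57) were higher in Per3 5/5. In Per3 5/5, 2 of 5 choroid plexus markers were lower (Ttr at -1.73 and Kcne2 at -0.80), as were 2 of 5 pituitary markers (Tshb at -3.07 and Pitx1 at -1.64). Of 9 hypothalamic markers, Sim1 was lower in both lines (-1.52 and -1.45) and Hcrt higher in Per3 4/4 (0.70), and limma called none of 5 thalamic markers (0 and 1 had an unadjusted p under 0.05). With scan day as a block, the markers still called were Aldoc in both lines and Aldh1l1, Tbr1, Cux2 and Tshb in Per3 5/5, besides the oligodendrocyte genes, and Ppp1r1b had 0.75 and 0.60 (adjusted p = 0.0789 and 0.125). Levels summed over each list on a linear scale, relative to the array's 75th percentile, were 190 to 276 in WT, 252 to 348 in Per3 4/4 and 232 to 292 in Per3 5/5 for 10 oligodendrocyte markers, 234 to 301, 263 to 364 and 291 to 383 for astrocytes, and 127 to 172, 153 to 175 and 148 to 201 for neurons. Every marker of these 3 lists was well above background on most arrays, and the part of tissue composition in the genotype differences was not tested. Pituitary markers summed to 745 in WT replicate 8 hypothalamus and to at most 43.8 elsewhere, and without that mouse 6 and 4 of the 9 genes were again called. The Schwann cell marker Pmp2 was not well above background on most arrays.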

How the data were processed

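RNA from frontal cortex and hypothalamus of 24 mice was hybridised to 48 single-colour Agilent arrays. The deposited scanner files hold, per the file headers, a background-subtracted processed intensity for each spot and flags for outliers and background. The authors' series table holds log2 values scaled to the 75th percentile and centred on each probe's median over the arrays of a tissue. After the same centring of the values computed here, 99.97% of those present in each tissue lay within 0.05. Of the authors' cortical values, 287243 were blank. Outlier spots (48 to 172 an array) were dropped, spots of a probe averaged, and log2 intensity taken minus the log2 75th percentile. Of 41174 probes, 27668 (67.2%) were named through RefSeq accessions. Probes flagged as well above background in 6 or more of the 8 arrays of any group were tested, 29715 of them in cortex and 30735 in hypothalamus. Genotypes were compared with limma 3.58.1 (R 4.3.3) over all probes with Benjamini-Hochberg adjustment and a threshold of 0.05, a fit first tested on simulated data. Correlations used 100000 permutations within genotype (Python 3.11.15, SciPy 1.17.1). Genes named in the wider lists were the called genes with the largest difference, at most 3 for each list, tissue and comparison, and some of these are not reported here. The 9 genes and all lists were chosen with earlier results of these data known. Replicates are separate mice, and their number limits the precision. The sex of the mice was not given in the sources used here.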

Additional observations from a re-analysis of the deposited data

Results flagged for a closer look

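Of 96 groups of 8 arrays (16 probes, 3 genotypes and 2 tissues), 4 held a mouse far from the others of its group, and chance alone flags about 1 in 20, or 4.8. Hypothalamic Cnp was 3.95 in Per3 5/5 replicate 6, with the next mouse at 4.21. Cortical Mbp (A_51_P349205) was 4.86 in WT replicate 5, with the next at 5.54. Hypothalamic Mal was 3.20 by probe A_51_P499071 in WT replicate 3, with the next at 2.51, and 1.75 by probe A_52_P562661 in Per3 4/4 replicate 1, with the next at 1.97.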

How the results depend on the processing

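Scan day and slide moved the counts of genes called. For the 9 genes in hypothalamus, Per3 4/4 (6 called) had 0 with scan day 2 alone, 2 when scan day was a block and 0 when slide was a fixed block, and Per3 5/5 (4 called) had 0 with scan day 3 alone, 0 when scan day was a block and 0 when slide was. The wider lists in hypothalamus went from 24 to 0, 5 and 0 in Per3 4/4 and from 18 to 0, 2 and 0 in Per3 5/5 under the same settings. In cortex the wider count in Per3 4/4 (8) was 15 with only 2 genotypes in the fit, 24 with normexp background correction, 0 with scan day 2 alone, 3 with a scan day block, 0 with slide fixed, 5 with slide random and 13 by the methods' t-test. In Per3 5/5 (2) it was 1, 13, 0, 0, 0, 1 and 1 in that order (scan day 3 in place of day 2), and 14 with each array centred on its median. The hypothalamic median r between the 9 genes was 0.70 within scan day 3, and the median r between tissues was 0.34 with normexp. Single days and slide blocks leave few mice per comparison, and scan day was not balanced over genotype. The cause of these shifts was not tested.

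Leaving out 1 mouse at a time, an alternative added after seeing the data, gave 6 to 7 genes called in Per3 4/4 hypothalamus, 4 to 6 in Per3 5/5 hypothalamus, 0 to 1 in Per3 5/5 cortex and 0 to 0 in Per3 4/4 cortex and between the KI lines. For the wider lists it gave 17 to 29 and 14 to 21 in hypothalamus and 5 to 11 and 1 to 5 in cortex. Replicate numbers were not taken to pair the genotypes, since no comparison had every correlation of same-numbered mice above 0.1. In hypothalamus they ran from 0.03 to 0.34 for WT with Per3 5/5 (6 of 8 above 0.1), from -0.20 to 0.12 for WT with Per3 4/4 and from -0.04 to 0.52 between the KI lines, whose replicates 1 to 4 shared slides and a scan day. In cortex the range was -0.42 to 0.46. With the number as a replicate block, 6 and 5 of the 9 genes were called in hypothalamus and 0 in cortex, and with the mouse as a block all 9 differed between tissues and 0 interactions passed. Of the 38 called probe results, 21 were genotype differences in hypothalamus and 1 in cortex, and the rest compared the tissues. None changed sign under the alternatives run, but many no longer passed. With scan day as a block 18 lost their call, and with slide as a fixed block all 22 genotype results did. Within scan day 2 or day 3 alone, the 13 and 9 results that could be compared all lost theirs.

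Normexp raised the median difference of all probes by 0.20 in Per3 4/4 cortex and 0.14 in Per3 4/4 hypothalamus, and median centring moved it by -0.11 in Per3 5/5 cortex. In hypothalamus 54.8% (Per3 4/4) and 54.6% (Per3 5/5) of calls were upward, against 31.8% and 34.5% with median centring, which called the same number of the 9 genes, 6 and 4. Normexp called 5 and 3. Precision is limited by 8 mice a genotype and by the dimmest probes.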
